A study of Mus musculus with 4 samples.

Results

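The clustered protocadherin genes were examined for CG methylation in 2 fractions of mouse sperm. The members were 562 windows of 200 bp, out of 316993 windows on chromosomes 1 to 19, X and Y. Each of them lay in 1 of 3 ranges of chromosome 18 (mm9) and held at least 3 CG sites with 5 or more reads in every library. The alpha range was chr18:37085000-37350000 with 173 windows, the beta range chr18:37410000-37670000 with 147 windows and the gamma range chr18:37810000-38005000 with 242 windows. The rule uses position and depth and no methylation level, although the ranges were proposed with earlier results of these data known.

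The 4 libraries were made by targeted genome bisulfite sequencing (TGBS), in which DNA is captured with the probes of a mouse methylation panel and treated with bisulfite, so that unmethylated cytosines are read as thymine. All sperm came from wild-type, untreated C57BL/6 mice, 11 to 12 weeks old. Swim-up sperm (2 libraries) were the motile cells taken from the top of the medium. Histone replacement-completed sperm (HRCS, 2 libraries) were heads of high density, pelleted through 82% Percoll after mild sonication of total sperm from the caudal epididymis and vas deferens. Swim-up also collects sperm that have completed the exchange of histones for protamines, so a purified fraction was compared with a mixed one. HRCS were not prepared from swim-up sperm, so the fractions also differ in how cells were selected and prepared. The labels do not say whether replicates came from separate animals, so p-values measure only the spread between these libraries, which may be technical. With DNA methylation alone, the cell type could not be checked against marker genes.

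Clustered protocadherins are cadherin-type adhesion proteins of the cell surface, best known from neurons, where the set of isoforms on each cell gives it an identity by which branches of the same cell avoid each other. In the alpha and gamma clusters each variable exon has its own promoter and is spliced to constant exons shared by the cluster, while each beta gene is a single exon with its own promoter. Neurons use few of these promoters at a time, and methylation of a promoter and its first exon is known to go with its silence. In male germ cells most of the genome acquires CG methylation before birth, from which CG-rich promoters are typically spared.

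The ranges list 9516 CG sites, of which 4790 (50.3%) had 5 or more reads in all 4 libraries, against 12.4% of the sites of all chromosomes. Coverage was highest in the beta range, where the median site had 65.5 and 50 reads in swim-up 1 and 2 and 91 and 85 reads in HRCS 1 and 2. In the alpha range the medians were 39, 34, 45 and 40 reads, and in the gamma range 32, 26, 35 and 31, in the same order of libraries. Autosomal sites outside the protocadherin span had medians of 19 to 25 reads. The whole libraries held 71379227 to 89403347 methylation calls, a call being 1 read over 1 CG site. HRCS replicate 1 was the deepest and swim-up replicate 2 the shallowest library, both overall and in each range. Only 13.1% of the length of alpha, 11.3% of beta and 24.8% of gamma lay in windows that could be measured, so the levels describe the captured DNA and not the clusters as a whole.

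Most captured protocadherin windows were little methylated in both fractions, with the lowest mean level in alpha and the highest in gamma. The mean window level, each window weighing the same, was 5.84% and 5.71% in swim-up and 5.93% and 5.87% in HRCS for alpha. In beta it was 8.85%, 7.66%, 8.64% and 8.02%, and in gamma 16.3%, 16.0%, 16.4% and 16.0%. The libraries of the ranges did not overlap, and gamma was the highest in all 4 libraries. Gamma exceeded alpha by 10.3 percentage points and beta by 7.88, and beta exceeded alpha by 2.45. The order held under the alternatives run but the sizes did not: beta minus alpha was 1.04 with 10 reads per site and 5.83 with 1 site per window, and gamma minus alpha was 17.1 with 1 site per window. For each of these 3 pairs the exact sign-flip permutation test over the 4 libraries gave p = 0.125, the smallest value that 4 libraries allow, and 0.125 after Benjamini-Hochberg adjustment. Other autosomal windows, 312219 in all, lay between 44.4% and 44.7%.

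**Figure D1:**
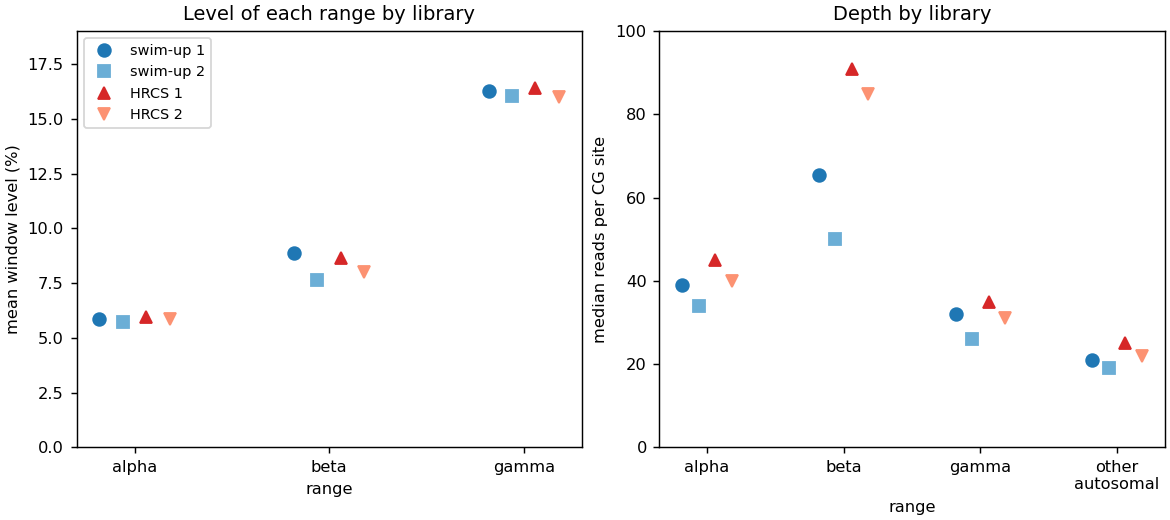
Mean window level (left, %) and median reads per CG site (right) in each of the 4 libraries for the alpha, beta and gamma ranges, with the depth of other autosomal sites. Each point is 1 library. Gamma sits near 16% in every library and alpha near 6%, while the beta sites are the most deeply read, at 50 to 91 reads.

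Means hide the shape of the distribution, because most windows were near 0 and a few were near 100%. The median window was 1.31% methylated in alpha, 2.25% in beta and 1.43% in gamma, compared with 23.0% for other autosomal windows. At most 25% methylation was found in 164 of 173 alpha windows (94.8%), 131 of 147 beta windows (89.1%) and 201 of 242 gamma windows (83.1%), compared with 50.5% of other autosomal windows. Over 75% methylation was found in 7 windows of alpha, 1 of beta and 34 of gamma, together 7.47% of the members against 40.7% elsewhere on the autosomes. The higher mean of gamma thus rested on its 34 methylated windows, since its median lay below that of beta. Windows from over 25% to 75% numbered 2 in alpha, 15 in beta (10.2%) and 7 in gamma. At single CG sites the same held, with 94.8% of alpha, 84.2% of beta and 84.9% of gamma sites at or below 10% methylation, against 57.7% of autosomal sites. In beta 15.1% of sites lay between 10% and 90%, compared with 2.84% in alpha and 7.27% in gamma.

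The sites left out for low coverage were more methylated. Pooling their calls, 26.1% to 29.1% were methylated in alpha, 28.3% to 31.9% in beta and 33.4% to 36.0% in gamma, over the 4 libraries. The corresponding autosomal sites stood at 68.5% to 72.5%. Each range gave 1081 to 3244 such calls per library, and they were not divided by site.

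Methylation in sperm falls with the density of CG sites, so the ranges were also compared with other autosomal windows listing the same number of CG sites. The match covers the window alone, and CG sites in the DNA around it were not matched. In windows of 200 bp the distance in points was greatest where CG sites were few, but there the other autosomal windows were also the most methylated. A range cannot lie further below them than their own level, so distances in points are not comparable between classes. Windows with 3 to 5 sites averaged 7.78% in alpha, 13.7% in beta and 30.2% in gamma, compared with 64.0% elsewhere on the autosomes, which makes differences of -56.2, -50.3 and -33.8 points. With 6 to 9 sites the differences were -32.1, -30.7 and -19.5 points, and with 10 to 14 sites -7.98, -10.9 and -11.2 points. Other autosomal windows averaged 37.4% and 12.5% in these 2 classes. With 10 to 14 sites alpha averaged 4.57%, beta 1.63% and gamma 1.31%, so beta and gamma were near 0 there. When 20 reads per site were required, the difference was -9.97 points for 6 to 9 sites in gamma, and -6.48 in beta and -7.01 in gamma for 10 to 14 sites. In longer windows a class stands for a lower density of CG sites. Beta kept this order at 500 bp but not at 1000 bp, and gamma kept it at neither length. At 500 bp the beta differences for 3 to 5, 6 to 9 and 10 to 14 sites were -72.9, -53.1 and -40.3 points. In alpha at 1000 bp the distance was larger for 15 to 19 sites (-60.8 points) than for 10 to 14 (-56.9 points). The gamma differences for 3 to 5, 6 to 9 and 10 to 14 sites were -23.2, -28.0 and -8.01 points at 500 bp and 1.54, -16.7 and -42.6 points at 1000 bp. Those of beta at 1000 bp were -80.0, -9.35 and -43.4 points. At 200 bp all 4 libraries showed each of these differences, and their spread over libraries was small: windows of 3 to 5 sites in gamma lay between 29.9% and 30.5%. Each of the 14 comparisons of a range and a class had p = 0.125 (exact sign-flip permutation test, two-sided), again the smallest value possible, and 0.125 after adjustment over the 14.

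In the densest windows of 200 bp the distance was small, but other autosomal windows themselves averaged only 3.27% with 15 to 19 sites. With 20 or more sites, 5 alpha windows averaged 0.930% and 8 gamma windows 1.15%, compared with 1.44% for other autosomal windows, and beta had no such window. With 15 to 19 sites the difference from other autosomal windows was -1.90 points in beta, while alpha was 5.39 and gamma 1.75 points above them. The alpha value rested on 2 of its 25 windows, which are described below: without the 6 windows of the 2 methylated alpha stretches, an alternative chosen after seeing the data, the difference became -1.91 points. The gamma value rested on 1 of 20 windows, chr18:37812401-37812600, which lists 15 CG sites, of which 6 had the reads required. That window read 80.0% and 88.1% in swim-up and 83.7% and 74.6% in HRCS on 36 to 73 calls. When 10 reads per site were required, the gamma difference became -1.94 points.

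**Figure D2:**
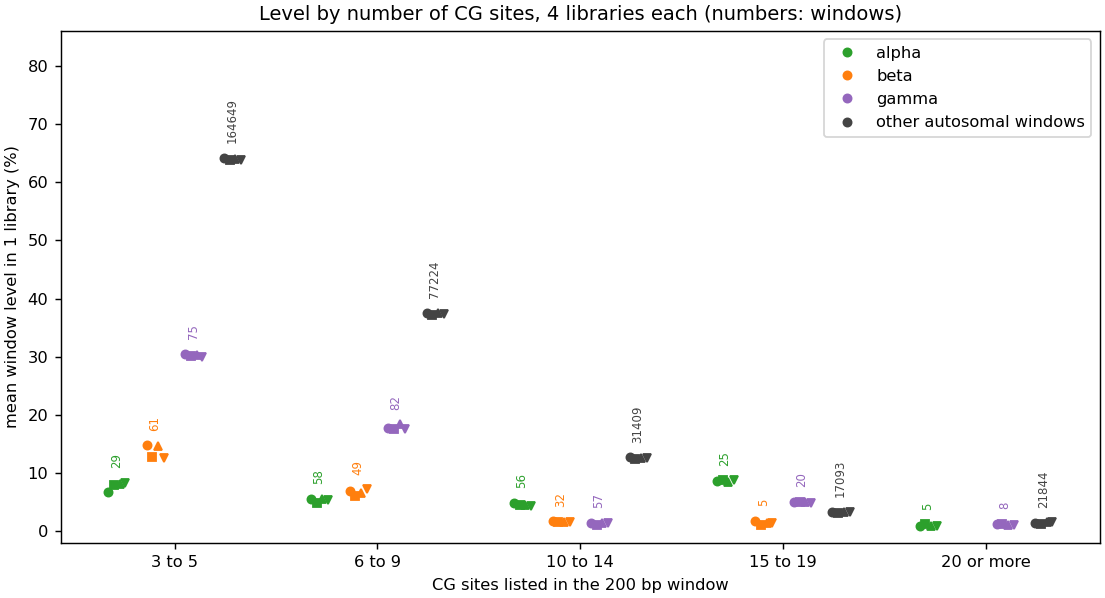
Mean window level (%) by the number of CG sites listed in the 200 bp window, for alpha, beta, gamma and all other autosomal windows. Within each group the circle, square, upward and downward triangle are swim-up 1 and 2 and HRCS 1 and 2, and the number above is the count of windows. Protocadherin windows with 3 to 5 sites lie at 6.71% to 30.5%, while other autosomal windows of that class lie near 64%.

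The measured unmethylated windows fell into short stretches along each cluster. A low stretch was defined as 3 or more measured windows at or below 25% with neighbouring windows starting at most 1000 bp apart. Alpha had 15 low stretches, beta 20 and gamma 25, which held 94.8%, 83.0% and 82.2% of the measured windows of the 3 ranges. Alpha stretches had the longest median, 2600 bp and 119 CG sites, compared with 1200 bp and 46 sites in beta and 1400 bp and 60 sites in gamma. From 1 start to the next, the median distance was 7.4 kb in alpha, 7.6 kb in beta and 5.7 kb in gamma. Because unmeasured DNA separates most stretches, their ends show where the measured windows stop as well as where the level changes. Their number, length and spacing likewise depend on which DNA was captured.

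In alpha the 3 longest low stretches began with chr18:37111801-37114800, 3000 bp with 124 CG sites. It read 1.27% and 1.17% in swim-up and 1.31% and 0.802% in HRCS. Several stretches of 2600 bp tied for the next places, and 13 of the 14 alpha stretches other than the 8th were at least 2000 bp long. Those 14 stretches had 4-library levels of 1.05% to 2.22%, and no library exceeded 2.72% in any of them. The 8th, left out of these 14 after its level was seen, is described below. The alpha window with the most CG sites, chr18:37121401-37121600 in the 5th stretch, had 21 sites and read 1.07% and 0.597% in swim-up and 1.04% and 0.830% in HRCS, on 1583 to 2291 calls. The next 4 windows tied at 20 sites, and their 4-library means lay between 0.663% and 1.36%.

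In beta the longest low stretches were 2600 bp, among them chr18:37460401-37463000 with 60 CG sites, which read 2.67%, 2.69%, 2.63% and 2.79% in swim-up 1 and 2 and HRCS 1 and 2. The 20 beta stretches ranged from 1.69% to 10.8%, and their median level was 2.99%, compared with 1.41% in alpha and 1.56% in gamma. The highest, chr18:37495001-37496000, read 13.3% and 8.04% in swim-up and 11.6% and 10.5% in HRCS. The beta window with the most CG sites, chr18:37665601-37665800, had 16 sites and stayed between 1.20% and 1.66% in the 4 libraries. The next 4 windows tied at 15 sites, and their 4-library means lay between 0.762% and 1.59%.

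In gamma the longest low stretch of any range, chr18:37910801-37916000, ran for 5200 bp over 191 CG sites. It read 2.33% and 1.66% in swim-up and 2.80% and 1.98% in HRCS. The next in length were chr18:37906001-37909400 and chr18:37965201-37968600, both of 3400 bp. The first of them read 2.54%, 2.40%, 2.12% and 2.68%, and the second 1.04%, 0.943%, 1.98% and 0.937%, in swim-up 1 and 2 and HRCS 1 and 2. The 25 gamma stretches ranged from 1.01% to 7.17%. The gamma windows with the most CG sites, chr18:37892401-37892600 and chr18:37903401-37903600, both had 27 sites. The first read 1.50%, 0.904%, 1.11% and 0.937%, and the second 1.44%, 2.49%, 1.24% and 1.54%, in that order of libraries. The window chr18:37926401-37926600, with 26 sites, had a 4-library mean of 1.74%.

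**Figure D3:**
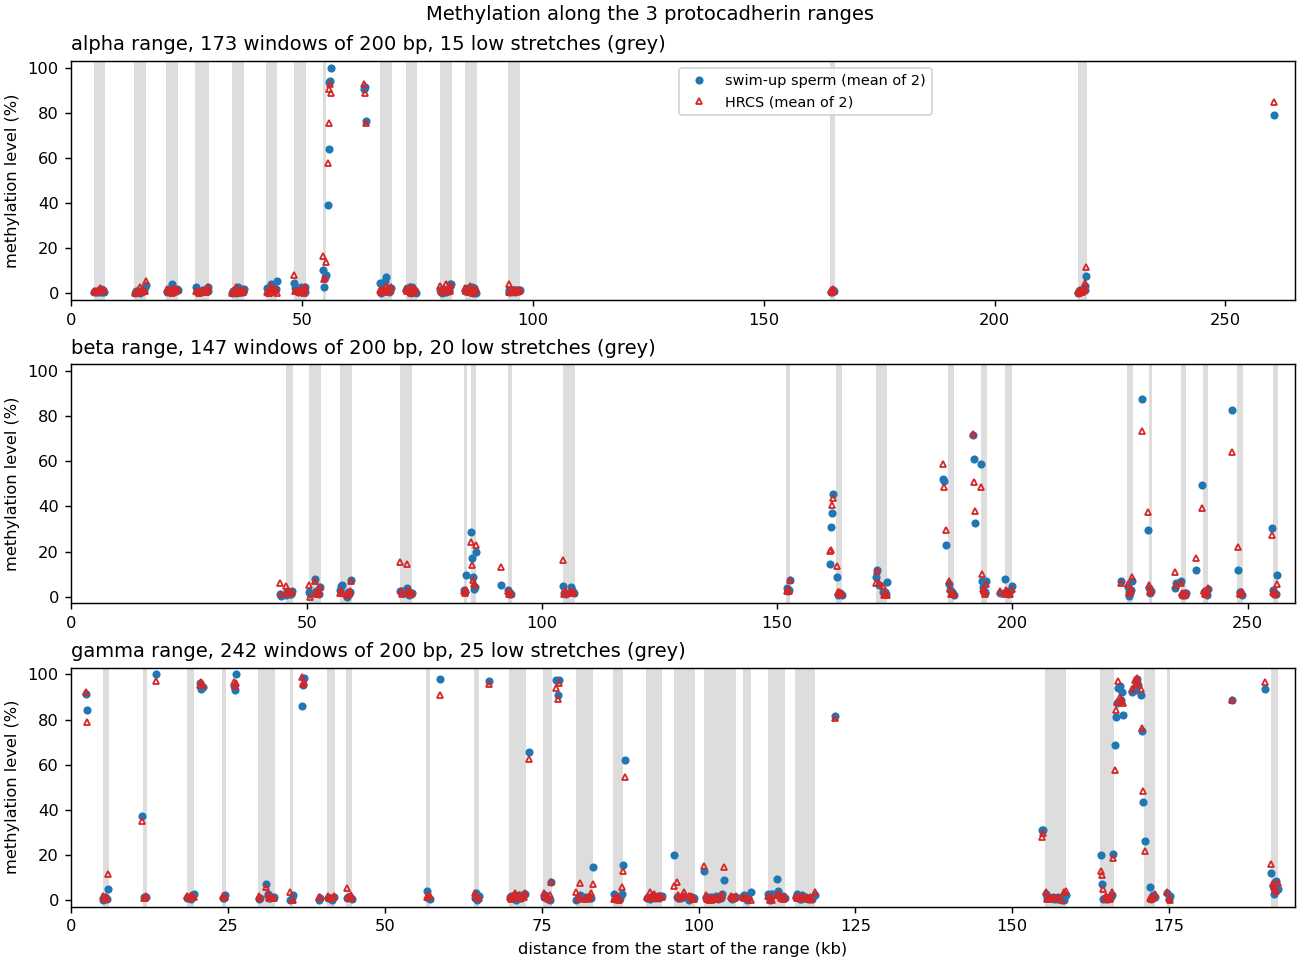
Methylation level (%) of every measured window along the alpha, beta and gamma ranges, against distance from the start of the range (kb). Filled circles are the mean of 2 swim-up libraries, open triangles the mean of 2 HRCS libraries, and grey bands the low stretches, 15 in alpha, 20 in beta and 25 in gamma. Gamma has many windows near 95%, whereas alpha has them mainly between 55 and 65 kb.

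RefSeq lists 14 alpha genes, Pcdha1 to Pcdha12 followed by Pcdhac1 and Pcdhac2, 22 beta genes, Pcdhb1 to Pcdhb22, and 22 gamma genes, of which Pcdhgb8 is a pseudogene. The annotation given is on the GRCm38 build, not on mm9, so only names and order were used and no stretch was assigned to a gene. Counts can be set side by side. Alpha had 15 low stretches, counting the short 8th one of 800 bp, beside 14 genes listed. The first 13 began 5.4 kb or more apart within the first 100 kb of the range, while the 14th and 15th stood alone further along, as the map of the ranges shows. Within its range beta had 20 stretches, beside 22 genes listed, and gamma had 25 beside 22. These counts depend on the rule: with neighbours at most 400 bp apart, beta gave 24 and gamma 31, and with neighbours at most 3000 bp apart, chosen after seeing the data, alpha gave 14, beta 19 and gamma 17. They also depend on where the ranges end, since further low stretches lay within 10.2 kb past the beta range. Whether all the genes of a cluster lie within its range was not tested, because the builds differ.

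Alpha had 1 place where CG-dense DNA was methylated. Between the 7th low stretch, which ended at 37135800, and the 9th, which began at 37151801, lay the short 8th stretch and 2 high stretches, runs of 3 or more windows at or above 75%. The 8th stretch, chr18:37139401-37140200, with 32 CG sites, read 3.21% and 10.9% in swim-up and 10.5% and 11.3% in HRCS, above every library of the other 14 alpha stretches. Levels then climbed within 1 kb. The window chr18:37140401-37140600 read 41.5% and 37.1% in swim-up and 61.2% and 54.5% in HRCS. The next, chr18:37140601-37140800, read 51.4%, 77.1%, 76.2% and 75.1%, so that swim-up replicate 1 stood apart from the other 3 libraries.

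The first high stretch, chr18:37140801-37141400, read 96.4% and 95.5% in swim-up and 92.2% and 89.3% in HRCS. Its central window, chr18:37141001-37141200, had all 15 of its CG sites measured, on 472 to 716 calls per library. It read 94.4% and 93.7% in swim-up and 93.2% and 92.3% in HRCS. Of other autosomal windows with 15 to 19 CG sites, 1.59% were over 75% methylated. The second high stretch, chr18:37148201-37149000, read 90.9% and 81.4% in swim-up and 84.2% and 87.2% in HRCS. Its lowest window had a 4-library mean of 75.9%. Its first window, chr18:37148201-37148400, had 11 of its 16 CG sites measured, on 106 to 356 calls. It read 89.5%, 92.1%, 91.1% and 94.7%. All 4 libraries thus had more than 89% methylation at the measured sites of 2 windows that list as many CG sites as dense unmethylated windows of the neighbouring stretches.

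In the GRCm38 annotations Gm36858, an unprocessed pseudogene in GENCODE, lies between Pcdha7 and Pcdha8. In alpha 7 low stretches precede the short 8th one and the methylated windows, but stretches were not assigned to genes, so their number places no gene. A second unprocessed pseudogene, Gm18150, follows Pcdha11, and a transcribed processed pseudogene, Gm19035, follows Pcdha12. Whether any of these coincides with a measured window was not tested, since the builds differ.

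**Figure D4:**
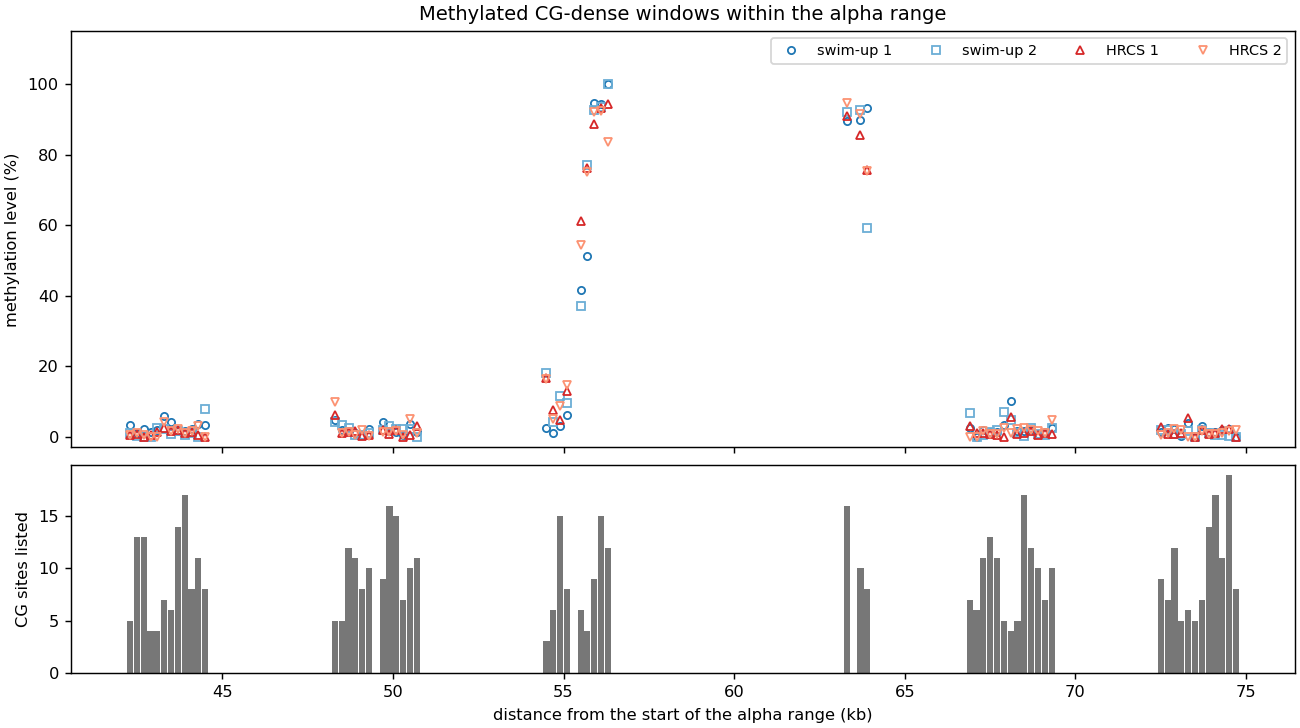
Methylation level of each measured window in the 4 libraries (top, %) and number of CG sites listed in it (bottom), against distance from the start of the alpha range (kb). Levels climb from the short low stretch at 54 to 55 kb to over 89% in the CG-dense window at 56.0 kb in every library, and return to low levels in the next stretch.

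Beta had 1 window over 75% but the most windows of intermediate level. All 15 windows over 25% and up to 75% started within 2 kb before a low stretch on its lower-coordinate side, and 1 of them also lay within 2 kb after another stretch. In gamma, 4 of 7 such windows were on the lower and 3 on the higher side. Both alpha windows were on the higher side, but alpha had 0 measured flanking windows on the lower side. The 25 beta windows that flanked low stretches on the lower side were all the measured beta windows outside low stretches. The side of the intermediate beta windows was therefore fixed by which windows could be measured. These 25 windows averaged 36.1% and 29.8% in swim-up and 33.6% and 30.5% in HRCS. On the higher side only 2 beta windows could be measured, so the sides cannot be compared in beta or alpha.

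Neighbouring windows before the 10th beta low stretch had intermediate levels in a row. The windows starting at 37571401, 37571601 and 37571801 had 4-library means of 25.7%, 39.1% and 44.7%, while the stretch that began at 37572601 stood at 1.79% to 4.30%. Before the 13th stretch, the windows starting at 37601601, 37601801 and 37602001 had means of 71.9%, 56.0% and 35.2%, and the one at 37603201, next to the stretch, had 53.9%. Replicates of 1 fraction differed widely in some of these windows, which were picked after their values were seen. The window at 37601601 read 93.9% and 49.2% in swim-up and 82.2% and 62.4% in HRCS, on 16 to 33 calls. The window at 37571801 read 59.7% and 31.7% in swim-up and 47.0% and 40.6% in HRCS, on 66 to 111 calls.

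Gamma held most of the methylated windows, 26 of its 34 in 6 high stretches, and 30 of the 34 within 2 kb of a low stretch. Of all 242 gamma windows, 199 lay in low stretches, and most of the others, whatever their level, lay within 2 kb of one. That closeness is therefore not particular to methylated windows. The windows flanking gamma low stretches on the higher-coordinate side averaged 89.2% and 90.8% in swim-up and 90.5% and 87.8% in HRCS (25 windows). On the lower side they averaged 62.8%, 62.4%, 64.3% and 63.1% in the same order (14 windows). Of the 8 lower-side windows over 75%, 7 formed the high stretch chr18:37979001-37980800, so 1 place made much of that average. The higher side likewise included the 7 windows of chr18:37976401-37977800. The 2 averages therefore do not describe gamma flanks in general. Flanking windows were poor in CG sites, with medians of 5 on the higher and 5.5 on the lower side. The longest high stretch, chr18:37979001-37980800, had 37 CG sites over 1800 bp and read 91.9% and 90.9% in swim-up and 93.3% and 92.9% in HRCS. Together with chr18:37976401-37977800, which read 88.4%, 89.0%, 90.2% and 87.9%, it lay between the 22nd and 23rd low stretches. At its far end the windows starting at 37980601 and 37980801 had means of 75.6% and 45.7%, leading into the 23rd stretch at 4.16% to 6.30%.

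HRCS and swim-up sperm were then compared at these genes. The study measured only a small share of swim-up sperm as not having completed histone replacement. Even a large difference in those cells would therefore shift the swim-up level little. Near-equal levels thus cannot show whether completed and uncompleted sperm differ in methylation. Mean levels in swim-up and HRCS were 5.78% ± 0.0879 and 5.90% ± 0.0459 in alpha, 8.26% ± 0.844 and 8.33% ± 0.441 in beta, and 16.2% ± 0.171 and 16.2% ± 0.290 in gamma (SD, n = 2 libraries each). HRCS was higher by 0.124, 0.0695 and 0.0331 points. In beta and gamma these differences were smaller than either SD, and in alpha the HRCS libraries lay just above the swim-up libraries, at 5.87% or more against 5.84% or less. The exact permutation test gave p = 0.333 for alpha and p = 1 for beta and gamma, each adjusted to 1, and 2 libraries against 2 cannot give less than 0.333. By number of CG sites, the difference over the 3 ranges together lay between -0.209 points (20 or more sites) and 0.282 points (6 to 9 sites), with adjusted p from 0.833 to 1. The share of windows at most 25%, over 25 to 50%, over 50 to 75% and over 75% methylated differed by -0.0890, 0.178, 0.0890 and -0.178 points, with p = 1 for each in the exact permutation test.

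No protocadherin window passed the test of single windows. With edgeR's quasi-likelihood test, 0 of 562 windows had a Benjamini-Hochberg adjusted p under 0.05, compared with 13 of 316993 over all chromosomes (0.00410%), and the smallest adjusted p in the ranges was 0.868. Without adjustment 25 of the 562 were under 0.05 (4.45%), compared with 4.61% of all windows. With limma 0 of the 562 passed after adjustment, as did 0 of all windows, and 28 (4.98%) without it, against 5.63% of all windows. Fisher's exact test on calls pooled within fractions, which ignores the spread between replicates, gave 3 (0.534%) after adjustment, against 0.756% of all windows, and 49 (8.72%) without it, against 9.66%. The 2 HRCS libraries both exceeded the 2 swim-up libraries in 100 of 562 windows (17.8%), against 16.6% of all windows, and below them in 85 (15.1%), against 16.1%. Over the 3 ranges together both shares were near the background. By range, 27 alpha windows were above (15.6%) and 36 below (20.8%), 29 beta windows above (19.7%) and 17 below (11.6%), and 44 gamma windows above (18.2%) and 32 below (13.2%). The share below was thus higher than that of all windows in alpha and lower in beta and gamma, and these differences between ranges were not tested.

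More than 10 points separated the fractions in 16 of 562 windows (2.85%), compared with 3.18% of other autosomal windows, whereas the 2 swim-up replicates were that far apart in 26 (4.63%) and the 2 HRCS replicates in 20 (3.56%). Elsewhere on the autosomes replicates were that far apart in 7.11% (swim-up) and 5.95% (HRCS) of windows. A fraction is the mean of 2 libraries and a replicate is 1 library, so the counts for fractions and for replicates are given side by side and cannot be compared directly. Beta had 10 of the 16, and also 15 and 12 of the windows that differed between replicates. The middle 90% of windows differed by -2.80 to 3.09 points in alpha, -6.48 to 6.79 in beta and -4.03 to 3.53 in gamma. Pearson's r across the 562 windows was 0.993 between fraction means, 0.982 for the swim-up pair and 0.987 for the HRCS pair. Between single libraries of the 2 fractions, the measure that matches the pairs, it was 0.984 to 0.987. These coefficients describe windows that share libraries, and windows are not independent replicates.

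**Figure D5:**
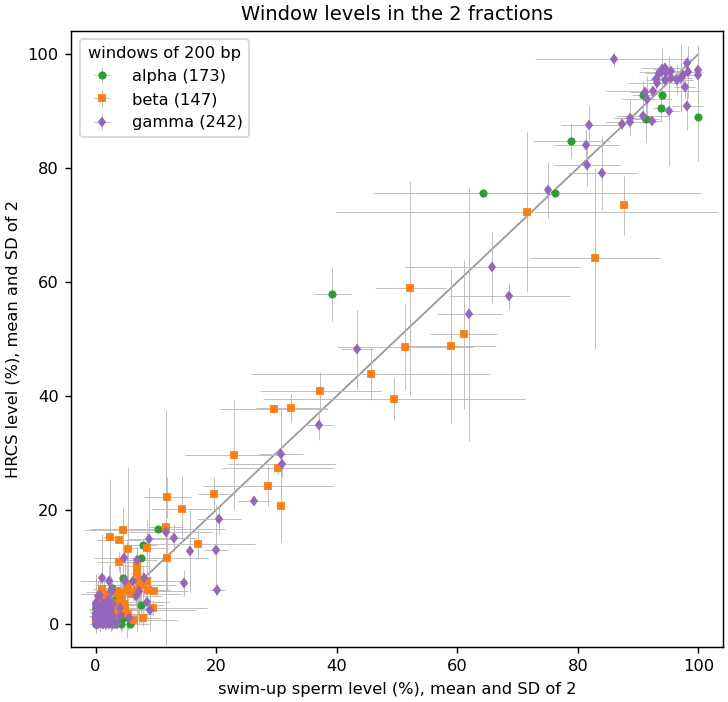
HRCS level against swim-up level (%) for the 562 protocadherin windows, with points at the mean and bars at 1 SD of 2 libraries, and the line of equal levels. Most points lie in the corner near 0, the gamma windows near 95% form a second group, and beta windows between 20% and 80% have the widest bars.

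The windows with the largest difference among those whose fractions did not overlap were picked for that difference and are given without a verdict. In alpha they belonged to the edge described above. The window chr18:37140401-37140600 was 18.6 points higher in HRCS (edgeR adjusted p = 1, 59 to 117 calls), and chr18:37140001-37140200 read 6.26% and 9.57% in swim-up and 13.1% and 14.6% in HRCS. The window chr18:37141201-37141400 read 100% in both swim-up libraries and 94.5% and 83.5% in HRCS, on 38 to 69 calls over 4 of its 12 sites. All 3 alpha windows lie within 1400 bp of each other, so they are not separate cases.

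In beta chr18:37637401-37637600 read 87.0% and 88.2% in swim-up and 69.8% and 77.1% in HRCS, over 3 CG sites with 55 to 74 calls. The window chr18:37479801-37480000, with the smallest adjusted p of the ranges, read 1.59% and 3.23% in swim-up and 22.5% and 8.05% in HRCS, on 75 to 87 calls. HRCS replicate 1 set most of that difference. The window chr18:37514401-37514600 read 0% and 9.17% in swim-up and 19.3% and 13.6% in HRCS, on only 24 to 41 calls.

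In gamma chr18:37906001-37906200 read 19.2% and 21.0% in swim-up and 6.67% and 5.38% in HRCS, on 28 to 64 calls. The window chr18:37846601-37846800 read 95.3% and 76.8% in swim-up and 98.1% and 100% in HRCS, and here swim-up replicate 2 alone was apart. The window chr18:37976201-37976400, next to the methylated DNA between the 22nd and 23rd low stretches, read 61.6% and 75.7% in swim-up and 59.1% and 56.0% in HRCS.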

How the data were processed

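The authors captured fragmented DNA with the SureSelectXT Mouse Methyl-Seq kit, made libraries by post-bisulfite adaptor tagging, read them as single reads and mapped them to mm9 with Bmap. The deposited files list read counts per CG position and strand, per the labels for swim-up sperm 1 and 2 and HRCS 1 and 2. They have no column names, so the smaller of the 2 count columns, never above the larger at any position, was read as the methylated reads. Bisulfite conversion and removal of duplicate reads are not given in the sources used here. A read over several CG sites counts at each, so calls are not independent.

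Strands were merged. A site needed 5 or more reads in every library and a window of 200 bp 3 or more such sites. A site's level was methylated over all calls, and plain means gave windows and ranges. Most calls came from 1 strand in all libraries. Windows were tested on methylated and unmethylated calls of the whole table with edgeR 4.0.16 (quasi-likelihood, common dispersion, a term per library, Benjamini-Hochberg), with limma 3.58.1 and Fisher's exact test as alternatives, in R 4.3.3. Means were tested by exact two-sided permutation (Python 3.11.15, numpy 2.4.6). The fit was tested on simulated data. Named windows were, per range, the 3 with the most CG sites, the 3 with the largest difference without overlap, the 3 longest low stretches and the 3 densest windows over 75%. Further windows and stretches, such as those at the edges of stretches, were named after their levels were seen. The members, lists and rules were chosen with earlier results of these data known. No reference sequence was printed.

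Replicate numbers are shared by both fractions. The differences between replicates 1 and 2 correlated with r = -0.00176 between fractions over all windows and 0.205 in the ranges, and with 2 pairs the numbers were not taken to pair the libraries. Alternatives were 10 or 20 reads, 1 or 5 sites, windows of 500 or 1000 bp, pooled calls, other dispersions and tools, other stretch rules, and leaving out each library.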

Additional observations from a re-analysis of the deposited data

How the results depend on the processing

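Several of the small differences between fractions changed sign, while those for 6 to 9 and for 20 or more CG sites kept theirs under the alternatives run. The mean level of HRCS minus swim-up was -0.136 (alpha), -0.175 (gamma) and -0.0501 (together) with 1 site per window, -0.0890 in gamma with 500 bp, -0.152 (alpha) and -0.00126 (gamma) with 1000 bp, and -0.0137 in alpha over sites without windows. Leaving out 1 library gave 0.0618 to 0.186 in alpha, -0.527 to 0.666 in beta, -0.172 to 0.238 in gamma and -0.157 to 0.298 together, below 0 in the last 3 without swim-up replicate 2 or HRCS replicate 1. By CG sites, the difference was -0.0173 (1 site) and -0.0228 (5 sites) for 3 to 5, 0.0140 (5 sites) for 10 to 14 and 0.0302 (10 reads) for 15 to 19. Leaving out 1 library gave -0.448 to 0.480 for 3 to 5, 0.00276 to 0.562 for 6 to 9, -0.216 to 0.0776 for 10 to 14, -0.0929 to -0.0487 for 15 to 19 and -0.243 to -0.175 for 20 or more.

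The share of windows over 75% differed by 0 (20 reads and 500 bp), 0.136 (1 site) and 0.0890 points (pooled calls), that at most 25% by 0 (1 site and 500 bp), that over 50 to 75% by -0.408 (1 site), -0.482 (500 bp) and -0.178 (pooled calls), and that over 25 to 50% by -0.493 (1000 bp). Leaving out 1 library gave -0.445 to 0.0890, -0.356 to 0.178, -0.445 to 0.623 and -0.267 to 0.623 in that order.

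Against other autosomal windows, longer windows change what a class of CG sites means. For 15 to 19 sites alpha was -18.4 (500 bp), -60.8 (1000 bp) and -1.91 (without the methylated stretches), and gamma -21.7 (500 bp), -31.8 (1000 bp), -1.94 (10 reads) and -1.59 (20 reads). Alpha with 15 to 19 sites was 3.02 with 20 reads, and beta with 15 to 19 sites -23.6 (500 bp) and -55.2 (1000 bp). With 20 or more sites alpha was 0.652 (500 bp) and -20.5 (1000 bp), and gamma -3.48 (500 bp) and -10.9 (1000 bp). Gamma with 3 to 5 sites was 1.54 (1000 bp). For 10 to 14 sites alpha was -50.1 and -56.9, beta -40.3 and -43.4, and gamma -8.01 and -42.6 (500 and 1000 bp). Beta with 6 to 9 sites was -53.1 and -9.35, so its distance grew and then shrank with window length. With 20 reads, gamma was -9.97 for 6 to 9 sites and -7.01 for 10 to 14, and beta -6.48 for 10 to 14. The order of the ranges held under every alternative run, with beta minus alpha from 1.04 (10 reads) to 5.83 (1 site) and 5.46 without the methylated alpha stretches, gamma minus alpha from 7.07 (20 reads) to 17.1 (1 site) and gamma minus beta from 5.56 (20 reads) to 12.3 (1000 bp). The number of low stretches stayed within 1.5 times.

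Windows past the adjusted p over all chromosomes numbered 7 (10 reads), 2 (20 reads), 6 (5 sites), 6 (500 bp), 7 (1000 bp), 0 (limma) and 2397 (Fisher), against 13, and 3 to 36 without 1 library, the 36 without swim-up replicate 1. In the ranges the count was 0 except for 3 with Fisher's test: chr18:37479801-37480000, chr18:37658201-37658400 and chr18:37846601-37846800, named after their values were seen. With the replicate block 9 windows passed over all chromosomes and 0 in the ranges, so it changed no call there. Depth, at 26 to 91 reads per median site, limits single windows with few sites most, and intervals for counting error would not cover differences between libraries.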

Other observations

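Outside the 3 ranges but within the same span of chromosome 18, 33 further windows could be measured, 9 between alpha and beta and 24 between beta and gamma. Between alpha and beta all 9 lay in a single low stretch, chr18:37376401-37378200, which read 4.13% and 1.67% in swim-up and 6.14% and 3.45% in HRCS. Between beta and gamma there were 3 low stretches. The first, chr18:37674401-37676000, read 4.22%, 2.55%, 3.45% and 3.37%, and the second, chr18:37677801-37680200, read 2.81%, 2.80%, 1.80% and 2.48%, in swim-up 1 and 2 and HRCS 1 and 2. The second ends 10.2 kb after the end of the beta range. The last, chr18:37803001-37804400, had a window with 23 CG sites and read 3.13%, 1.41%, 4.37% and 1.95%. Of the 24 windows between beta and gamma, 2 were over 75% methylated.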
